A study of Homo sapiens with 27 samples.

Results

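Tall peaks are the most deeply read insertion sites of a transposon in the human genome. They were taken from the peak lists of 12 libraries in which a wild-type transposon was mobilised by 1 of 4 piggyBac transposases. Each row of a list is 1 peak, and its height is the maximum read coverage in the peak. A row on an autosome with a height of 50 or more was counted as tall, and rows with a height of 5 to 9, the lowest values listed, served as the comparison. By this rule 313808 of the 5432984 autosomal peaks of the 12 libraries were tall, or 5.78%, out of 5641555 peaks in all 27 libraries of the series. They held 24.1% of the summed height. Members of both classes were chosen by height, so that heights are given below as a description, and tests were made on the positions of sites. Height may still depend on how densely insertions lie, since a peak can span more than 1. Clustering and recurrence are therefore not fully separate from the choice.

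All cells were HCT116, an established human colorectal carcinoma line, and all had received a self-reporting transposon and were grown in puromycin at 3 µg/ml for 2 weeks. The 4 groups of 3 libraries combined the wild-type transposon with piggyBac (the group WT_PB), with its hyperactive form (the group WT_hyPB), or with a re-engineered version of either (the groups WT_rePB and WT_rehyPB). What was re-engineered is not stated in the labels, nor is it stated whether replicates came from separate transfections, so that p-values measure the spread between these libraries, which may be technical. The other 15 libraries of the series used a short or symmetric transposon or the piggyBat system and held 161 tall peaks in all. Only RNA that starts inside a transposon was amplified, so that the labelled cell type could not be checked against expressed markers.

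PiggyBac is a cut-and-paste DNA transposon that inserts into the 4-base target TTAA and duplicates it on either side of the new copy. In mammalian cells it is known to favour open chromatin, gene starts and regions bound by BET proteins, which read acetylated histones. In a self-reporting transposon an internal promoter drives transcription through the transposon's own end into the flanking DNA, and the resulting RNA shows where it sits. The height of such a peak can rise with the number of cells that carry the insertion, with the RNA made per insertion and with amplification, and these cannot be told apart here. Heights are PCR reads without molecular identifiers and are not counts of molecules.

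The position of a site was the first base of its 4-base target. Of the tall site records that fell inside a promoter window of the RefSeq tables (250 bases before to 50 after a gene start, GRCh38.p14), 4008 of 4065, or 98.6%, sat exactly on TTAA, and 8271 of 8526 low records, or 97.0%, did so. TTAA reads the same on both strands, and 46.2% of the 33725 autosomal promoter windows held at least 1 copy. To show what recurrent tall targets look like, the 8 targets that lie upstream of a gene start, outside annotated genes, and were tall in the most libraries are printed with 28 bases on either side, all on the plus strand with TTAA in capitals.
MAPK14: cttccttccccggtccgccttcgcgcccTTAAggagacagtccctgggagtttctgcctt
SF3B1: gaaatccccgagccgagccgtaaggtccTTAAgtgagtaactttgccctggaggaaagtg
CHMP4A: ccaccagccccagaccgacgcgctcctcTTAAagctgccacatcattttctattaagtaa
POLE2: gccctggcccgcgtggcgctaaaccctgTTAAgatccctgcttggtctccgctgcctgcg
DNAJC15: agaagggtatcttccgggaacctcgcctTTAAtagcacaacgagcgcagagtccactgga
ZNF532: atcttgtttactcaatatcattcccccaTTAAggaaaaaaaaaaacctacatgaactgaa
CNOT6L: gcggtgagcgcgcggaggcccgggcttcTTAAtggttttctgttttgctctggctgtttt
RYK: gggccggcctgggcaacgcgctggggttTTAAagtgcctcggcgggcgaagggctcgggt

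For contrast, 4 targets in the same kind of window that were listed in the most libraries without ever reaching a height of 50 are printed in the same way.
CRADD: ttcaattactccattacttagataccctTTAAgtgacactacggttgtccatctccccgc
COX5B: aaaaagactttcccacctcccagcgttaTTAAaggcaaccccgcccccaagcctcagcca
CWF19L2: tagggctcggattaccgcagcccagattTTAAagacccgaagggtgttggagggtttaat
FASTKD1: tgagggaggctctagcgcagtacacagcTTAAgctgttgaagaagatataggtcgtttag

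The MAPK14 stretch, upstream of the gene of the p38 stress kinase, is chr6:36027567-36027626, and its target lies 213 bases before the gene start. That target was tall in 12 of 12 libraries, with heights from 70 to 177 and a median of 137. The SF3B1 stretch, chr2:197435229-197435288, precedes the gene of a splicing factor, and its target was tall in 12 of 12 libraries with heights from 65 to 186. Its lowest library was WT_rehyPB replicate 1. The targets of CHMP4A (chr14:24213610-24213669), a membrane remodelling protein, and POLE2 (chr14:49688273-49688332), a DNA polymerase subunit, were each tall in 10 libraries. In WT_rehyPB replicate 1 they were at 40 and 37, and in WT_rehyPB replicate 2 neither was listed. Those of DNAJC15 (chr13:43023477-43023536), ZNF532 (chr18:58862766-58862825) and CNOT6L (chr4:77820380-77820439) were each tall in 10 and listed in 12. RYK (chr3:134250927-134250986) encodes a receptor for Wnt ligands, and its target was tall in 9 libraries and listed in 12, with heights from 11 to 158. The CRADD target (chr12:93677177-93677236) was listed in 12 libraries at 6 to 40, and the COX5B target (chr2:97645837-97645896) in 12 at 6 to 43. The CWF19L2 (chr11:107457949-107458008) and FASTKD1 (chr2:169574001-169574060) targets were each listed in 11 libraries and did not exceed 27 in any.

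Across the promoter windows there were 27875 TTAA targets on autosomes, of which 1409, or 5.05%, were tall in at least 1 library and 69.99% were listed in none. The 20 bases on either side were 51.3% G or C on average for the tall targets (1224 with complete flanks), 53.5% for the 190 targets tall in 6 libraries or more, 43.8% for targets that never exceeded a height of 9 (1997) and 40.4% for targets not listed (17030). These shares describe base composition in promoter windows alone, which were 42.2% over all targets with complete flanks.

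Tall rows had a median height of 65 and a highest height of 513. The limit of 50 cuts a continuous range, with 81490 rows at heights of 45 to 49 and 63052 at 50 to 54, and 40937 rows reached 100 and 1946 reached 200. Each library held 21247 to 30070 tall rows. Counted by position, with the tallest row deciding where both strands were listed, there were 20834 to 29806 tall sites per library and 119355 to 235130 low sites, at file totals of 8118085 to 12051190 reads. Tall peaks were also longer, with a median width of 273 bases against 59 for low peaks. WT_hyPB replicates 1 and 2 stood apart from all other pairs. They shared 74.5% and 80.8% of their tall positions, whereas the other pairs of libraries of 1 group shared 10.4% to 39.6% and pairs across groups 11.03% to 34.8%. Every test below was therefore repeated with these 2 libraries averaged to 1. No class difference or transposase effect changed direction or call. Of 1578 genes called between tall and low sites 1518 kept their call, 60 lost it and 14 others gained one, and of 479 bins of 5 Mb 471 kept it. Among the genes named below AFF1 lost its call.

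Tall sites lay less often inside genes and more often near their ends than low sites of the same library. The share inside an annotated gene was lowest at 59.5%, median 60.8% and highest at 62.0% for tall sites over the 12 libraries, against 64.3%, 65.1% and 65.7% for low sites. The ranges did not overlap. The difference was -4.28 ± 0.604 percentage points (SD, n = 12) and negative in 12 of 12 libraries (two-sided exact permutation test that flips the sign of each library's difference, p = 0.000488, the smallest this test can give, adjusted p = 0.00122 over 10 tests). Sites within 5 kb of a protein-coding gene's start or end made up a share that was lowest at 20.8%, median 23.8% and highest at 26.1% for tall sites and 14.6%, 16.3% and 17.3% for low sites. Here the tall sites were the higher class by 7.73 ± 1.70 points (SD, n = 12), in 12 of 12 libraries (the same exact test, p = 0.000488, adjusted p = 0.00122).

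The promoter tables give strand, which allowed starts to be told from other gene ends, a measure added after the files were seen. Within 1 kb of 1 of 33557 gene starts lay 5.46% to 11.99% of tall sites, with a median of 8.52%, against 2.78% to 4.19% of low sites, with a median of 3.63%. The difference was 5.01 ± 2.18 points (SD, n = 12) and positive in 12 of 12 libraries (exact permutation test, p = 0.000488, adjusted p = 0.00732 over 15 added tests). Starts on chromosome 8 were not used here. In WT_PB the last 500 bases before a start held 3.35% ± 0.169 (SD, n = 3) of tall sites and 0.917% ± 0.0782 of low sites, and the first 500 bases after it held 2.46% ± 0.0784 and 0.825% ± 0.0819. Between 5 and 10 kb downstream the shares were 4.59% ± 0.0805 of tall and 4.72% ± 0.0605 of low sites. Under the re-engineered transposases the rise was lower. The last 500 bases before a start held 1.56% ± 0.0984 of tall sites in WT_rePB and 1.81% ± 0.153 in WT_rehyPB, and the stretch from 1000 to 500 bases before it held 1.73% ± 0.108 and 1.95% ± 0.186 (SD, n = 3 each).

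**Figure D1:**
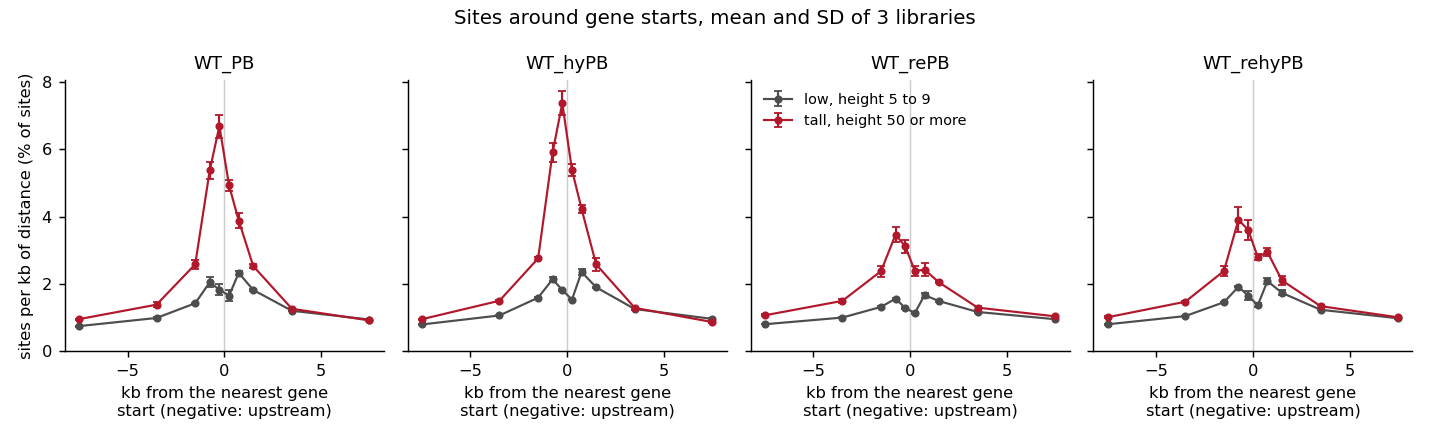
Share of sites per kb of distance from the nearest gene start (vertical axis, percent of sites per kb) against that distance in kb, negative upstream, for tall and low sites in each of the 4 groups, with the mean and SD of 3 libraries. Both classes rise towards the start, tall sites more so in every group and least in WT_rePB and WT_rehyPB. Low sites, and slightly so tall sites of WT_rePB and WT_rehyPB, are fewer within 500 bases of the start than just beyond. The classes come close to each other from 2 kb downstream.

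Peaks also have a direction, that of the RNA read from the transposon. Inside genes of 1 known strand, 33.6% to 35.9% of tall sites were read in the sense of the gene, with a median of 35.0%, against 35.0% to 40.7% of low sites, with a median of 38.2%. Both classes thus held fewer sense than antisense peaks. The tall share was the lower in 12 of 12 libraries, by 3.15 ± 1.37 points (SD, n = 12, added after the files were seen and not tested), and least so in WT_hyPB replicate 3, by 0.232 points.

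**Figure D2:**
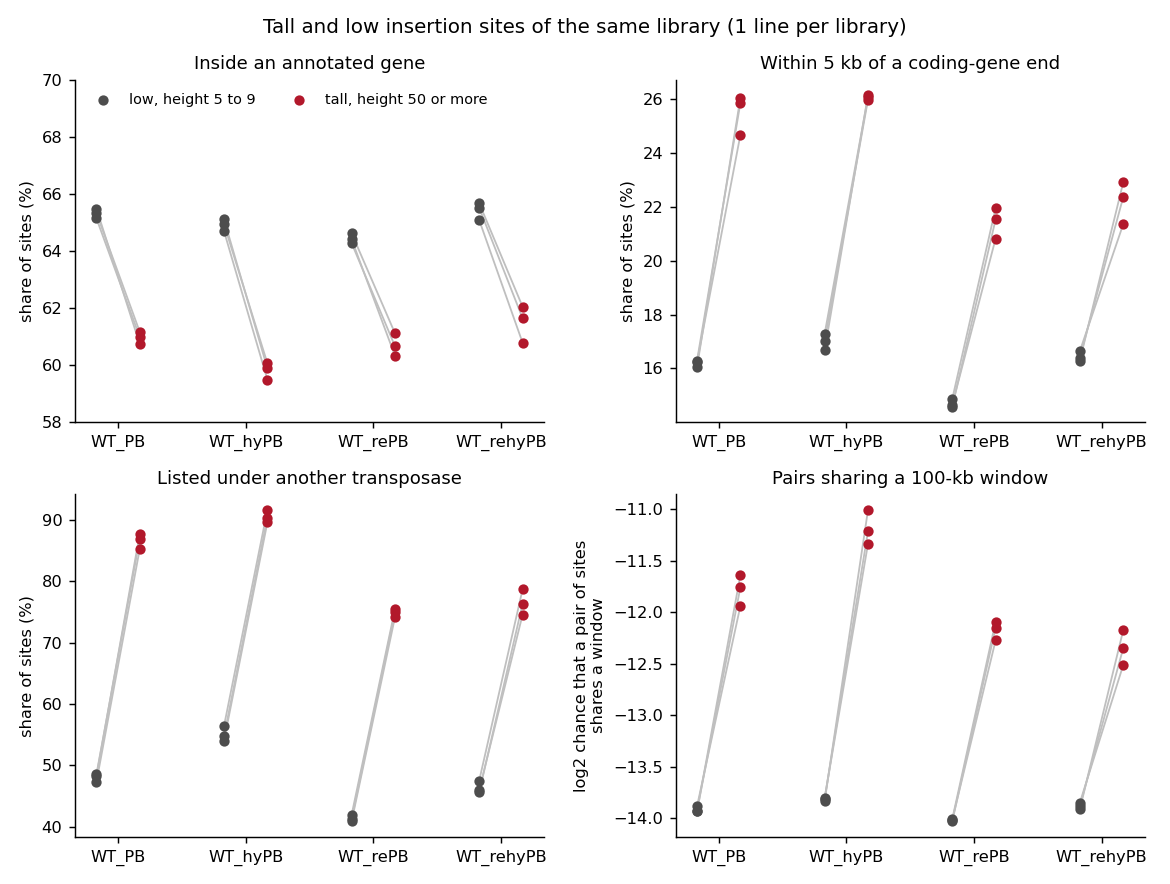
Share of sites inside an annotated gene, within 5 kb of a coding-gene end and listed under another transposase (vertical axes in percent), and the log2 chance that a pair of sites shares a 100-kb window, for low and tall sites of each of the 12 libraries, 1 line per library. Every line runs the same way within a panel, and the tall values of WT_rePB and WT_rehyPB lie below those of WT_PB and WT_hyPB in all panels but the gene share.

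Tall positions recurred. Of the tall sites of a library, 74.2% to 91.6% (median 82.0%) were also listed at the same base, at any height, in at least 1 of the 9 libraries of the other transposases, against 40.9% to 56.4% (median 47.4%) of low sites. The classes did not overlap, and the difference was 34.4 ± 3.29 points (SD, n = 12), positive in 12 of 12 libraries (exact permutation test, p = 0.000488, adjusted p = 0.00122). These 9 libraries were also taken 1 at a time and their shares averaged for each library. On this average a tall site was listed in 35.4% to 56.1% of cases and was tall again in 13.1% to 26.4%. A low site was listed in 10.7% to 14.05% and was tall in 0.639% to 1.22%. Where listed elsewhere, the median height of tall sites was 35 to 47 and that of low sites 11 to 13.

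The 309602 tall site records fell on 184373 distinct positions. Of these positions 133622, or 72.5%, were tall in 1 library, 50751 in 2 or more, 7682 in 6 or more and 297 in all 12. WT_hyPB replicates 1 and 2 count as 2 libraries in all counts of this paragraph, although they shared 17906 tall positions. Recurrence in few libraries is therefore not all between separate libraries. All 4 transposases gave a tall peak at 6322 positions, or 3.43%. There were 43898 positions, or 23.8%, that were listed in 1 library and no other, at any height. The composition moved with recurrence. Within 1 kb of a gene start lay 4.11% of the positions tall in 1 library, 8.03% of those tall in 2 or 3, 13.2% for 4 to 6, 15.5% for 7 to 9 and 14.3% of the 1466 positions tall in 10 to 12. The share inside genes went from 62.7% to 54.6% over the same classes. Since tall in many libraries is itself a choice on height, these shares are given without a test.

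**Figure D3:**
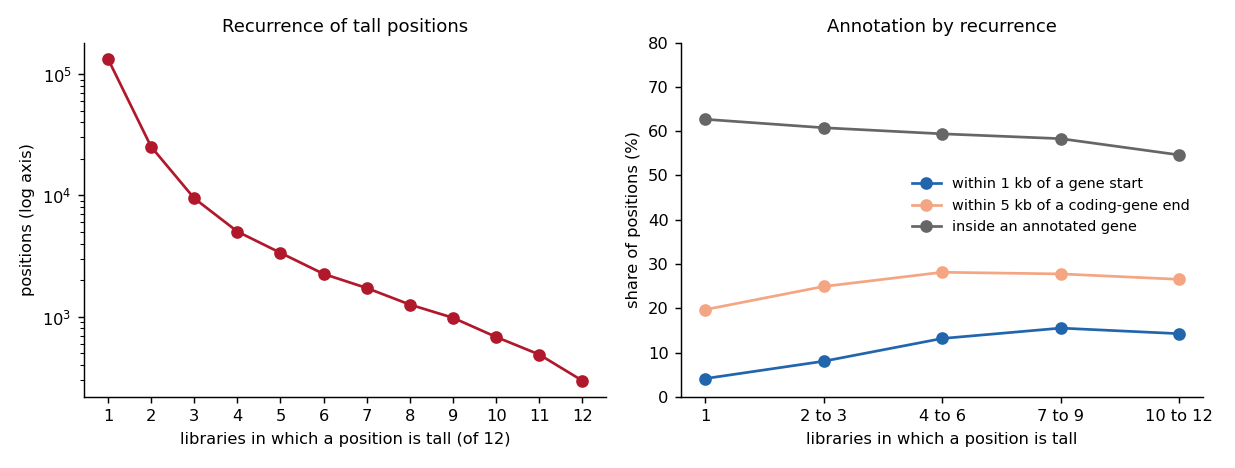
Left, number of positions (log axis) that were tall in 1 to 12 of the libraries. Right, share of positions (percent) inside an annotated gene, within 5 kb of a coding-gene end and within 1 kb of a gene start, by the number of libraries in which they were tall. Positions fall from 133622 in 1 library to 297 in 12, and the share near a start goes from 4.11% to 14.3%. WT_hyPB replicates 1 and 2, which shared most of their tall positions, are counted as separate libraries.

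Recurrent tall sites also kept their direction. Over 54 pairs of libraries of different groups, positions tall in both and listed on 1 strand only in each were read on the same strand in 94.8% to 99.1% of cases, with a median of 97.9% (1861 to 3987 positions per pair). Positions low in both libraries gave 61.2% to 70.2%, with a median of 66.4%. Taking the strand of the tallest row and keeping positions listed on both strands, an alternative added after the data were seen, gave 90.1% to 95.4% for tall positions. Of the 297 positions tall in all 12 libraries, 227 had the same strand in all 12, 117 of them plus. Both strands were listed at 10.4% to 24.98% of tall positions and at 1.02% to 1.96% of low ones, a share that can rise with height. The WT_PB libraries had both strands at 20.3% ± 1.28 of tall positions and the WT_hyPB libraries at 23.6% ± 1.21 (SD, n = 3 each). It was 14.5% ± 0.434 for WT_rePB and 11.2% ± 0.961 for WT_rehyPB.

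Of the positions tall in all 12 libraries, the one with the highest summed height lay in MPP7, a scaffold protein of cell junctions, at chr10:28095773-28095776. Its heights ran from 247 to 345 with a median of 296. A further position of this gene, chr10:28201739-28201742, ran from 152 to 288. At chr1:209827660-209827663, in no coding gene and 312 bases from the start of UTP25, a ribosome biogenesis factor, the heights ran from 116 in WT_rehyPB replicate 2 to 360 in WT_hyPB replicate 1. Others among the 10 leading positions lay near CYB5B (chr16:69409716-69409719, 198 to 287), in PTPA (chr9:129139928-129139931, 100 to 323), in the noncoding gene LINC-PINT (chr7:130898819-130898822, 111 to 377) and in MCOLN2 (chr1:84946072-84946075, 101 to 276). The position on chromosome 8, 93885627, was at 225 to 315 in 11 libraries and at 56 in WT_rePB replicate 2. The last 2 of the 10 lay in no annotated gene, at chr11:108973676-108973679 (77 to 306) and chr2:177167046-177167049 (99 to 282).

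The tallest single peak, at 513, was in WT_hyPB replicate 3 at chromosome 2, position 62569757, in no annotated gene. That position was tall in 9 libraries and listed in no other. Among the 10 tallest rows were also 478 at chromosome 12, position 65726760, and 451 at chromosome 10, position 112527378, inside VTI1A, which encodes a SNARE protein of vesicle fusion. The VTI1A peak shows how the lists cut sites. Position 112527378 was listed in 3 libraries, at 441 to 451, and position 112527419, 41 bases away on the same strand, was listed in 10, was tall in 9 and ran from 11 to 437. No library overlapped peaks on a strand, and peaks on 1 strand were at least 2 bases apart, so that an insertion inside the span of another peak has no row of its own. A position on the same strand that other groups list lay inside 37.1% to 54.6% of tall peaks, at 1.88 to 3.13 per 1000 bases, and inside 6.44% to 8.76% of low peaks, at 1.01 to 1.29 per 1000 bases. How many insertions tall peaks cover in this way, and whether these add to the height, was not tested.

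Tall sites were gathered in fewer places than low sites. The chance that a pair of sites of 1 library shares a 100-kb window, which does not depend on the number of sites, was 0.000171 to 0.000486 for tall sites (median 0.000242) and 5.99e-05 to 6.99e-05 for low sites (median 6.56e-05). The ratio was 2.52 to 7.09 with a median of 3.81, or 2.04 ± 0.445 on the log2 scale (SD, n = 12), and above 1 in 12 of 12 libraries (exact permutation test, p = 0.000488, adjusted p = 0.00122). A tall site's nearest tall neighbour was a median of 3.23 to 12.7 kb away and a low site's nearest low neighbour 2.15 to 4.59 kb, distances that move with the number of sites. Of the 6 windows with the most distinct tall positions, 4 were the consecutive windows from 30700000 to 31099999 of chromosome 4, over PCDH7, with 228 to 308 positions each. The others lay on chromosome 3, over PHLDB2, ABHD10 and TAGLN3 (254 positions), and on chromosome 7 (234 positions). In the window from 30800000 on chromosome 4 each library held 60 to 102 tall sites (median 85) and 59 to 96 low sites (median 83). As shares that was 32.3 per 10000 tall sites and 4.64 per 10000 low sites. The chromosome 7 window, which starts at 130900000 and holds no coding gene, had 43 to 78 tall and 26 to 68 low sites.

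PCDH7, a protocadherin of cell adhesion at chr4:30720369-31146800, held more tall positions than any other of the 17953 protein-coding genes of at least 2 kb. Its 1093 distinct tall positions gave 3287 records, at 200 to 342 tall sites per library (median 264.5) beside 248 to 412 low sites (median 346.5). Per 10000 tall sites of a library, PCDH7 held 116 ± 9.15 under piggyBac and 151 ± 12.2 under the hyperactive form (SD, n = 3 each). Under the re-engineered forms it held 88.3 ± 2.38 (WT_rePB) and 80.1 ± 9.68 (WT_rehyPB). Per 10000 low sites the 4 group means were 15.4 to 21.4, lowest in WT_rePB and highest in WT_rehyPB. The tall share exceeded the low share in 12 of 12 libraries, by 2.47 ± 0.15 on the log2 scale (SE, limma, adjusted p = 1.53e-06). PCDH7 was picked for its tall sites, which favours such an excess. Which genes hold more of the tall than of the low sites was tested with the same limma fit for 2178 genes. A prior of 0.5 sites at the mean class size was scaled to the size of each class and library. Tall counts, from the smaller class, thus received less than 0.5 and low counts more. A library with no tall site in a gene therefore gave a strongly negative value. At few tall sites the mean over libraries can thus lie below what pooled shares give. Of the 2178 genes 503, or 23.1%, were higher in tall sites and 1075, or 49.4%, were lower. With a prior of 2 sites 530 were higher and 1109 lower, and the median difference was -0.54 in place of -0.72. Scaling each library to the median gene in place of the class totals raised all differences by 0.42 and gave 656 higher and 826 lower, so that deficits smaller than that have no settled sign. The filter bears on these counts. It let in 428 genes through their tall sites alone, of which 306 were higher and 0 lower, and 831 through their low sites alone, of which 784 were lower and 0 higher. Among the 919 that passed on both, 197 were higher and 291 lower.

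Behind PCDH7, VTI1A had the most tall sites summed over the libraries, with 65 to 111 per library. Next came NSMCE2, a SUMO ligase of DNA repair, with 65 to 101, and MPP7 with 69 to 102. PALLD, an actin-binding protein, had 60 to 99 and PHLDB2 59 to 91. The log2 differences of these 5 were 1.77 to 2.06, each higher in 12 of 12 libraries. All 12 genes that lead this ranking, PCDH7 included, were picked for their tall sites. This favours a tall excess, so that their direction is a description. PPP3CA, a catalytic subunit of calcineurin, DLGAP1, a synaptic scaffold, PDE4B, which breaks down cyclic AMP, MTHFD1L, an enzyme of mitochondrial folate metabolism, and VMP1, an autophagy protein, were also higher, at 1.25 to 2.33. ZBTB20, a zinc finger repressor, was the exception among the 12. It held 29 to 55 tall sites per library (median 44) and 169 to 335 low sites (median 279), with a log2 difference of 0.18 ± 0.14 (SE, limma adjusted p = 0.257), higher in 9 of 12 libraries. After scaling to the median gene it was 0.60, with an adjusted p of 0.00348.

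The largest excesses were at genes with few sites. Of the 10 genes with the largest difference, ANXA3, an annexin that binds membranes, had enough sites in both classes, at 15 to 25 tall and 11 to 30 low per library, and was higher at 2.99 ± 0.16 (SE, limma adjusted p = 8.42e-07). CCR7, LOC124909439, SLC39A1, AP3D1, KAZALD1, ZBTB45, PIGV and C12orf76 entered through their tall sites alone, so that the filter fixed their direction and their values of 3.05 to 3.68 are a description. CCR7, a chemokine receptor known from lymphocytes, had 25 tall records on 5 positions and 6 low ones, from classes whose summed sizes differ 6.90-fold. The genes with the largest deficits entered through their low sites alone, and are described in the same way. NKAIN2 spans 1021776 bases and had 2 tall and 313 low records. ARIH1, a ubiquitin ligase, had no tall site in any library and 8 to 27 low sites in each. Set against a floor of 3 records over the 12 libraries, its tall share was at least 9.08-fold lower. FBXL17, CCDC91, NDST4, PIK3C2G, KCNT2, LCORL and PCDH15 had 1 to 7 tall records each. Among the 919 genes that passed on both classes the median length was 161 kb for the 197 that were higher, 382 kb for the 291 that were lower and 193 kb for the 431 with no call.

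Gene lists are described by their counts and by the class through which members entered. Over all genes tested, 306 of the 428 that entered through tall sites alone were higher. Through low sites alone 784 of 831 were lower, and of the 919 that passed on both 197 were higher and 291 lower. In the list of intestinal and colorectal genes 9 of 21 were tested, 5 were higher and 3 lower, with a median difference of 0.60 beside -0.72 over all genes tested, but 7 of the 9 entered through 1 class alone. The 2 that passed on both were TCF7L2, the Wnt effector of gut epithelium, with 8 to 18 tall and 33 to 77 low sites per library and a difference of 0.60 ± 0.16 (SE, limma adjusted p = 0.00575), and PPARG, a nuclear receptor, with 0 to 6 tall and 16 to 42 low sites and a difference of -1.26 ± 0.49 (limma adjusted p = 0.0375). Pooled over the libraries, PPARG held 1.16 per 10000 tall and 1.75 per 10000 low sites, a ratio of 0.67, which is a smaller deficit than the mean difference gives. In WT_rehyPB its mean shares were 1.59 and 1.61. The TCF7L2 call was lost with sites of height 10 to 19 as the comparison (0.35, adjusted p = 0.0851). The PPARG call was lost after scaling to the median gene (-0.84, adjusted p = 0.139), with the replicate block (adjusted p = 0.0537), with no filter (adjusted p = 0.0554), and without any 1 of 7 libraries, WT_PB replicate 1, WT_hyPB replicate 3, WT_rePB replicates 2 and 3 and the 3 WT_rehyPB libraries, at adjusted p from 0.0516 to 0.0881. Entered through tall sites alone were AXIN2, a feedback inhibitor of Wnt signalling (24 tall and 30 low records, 2.06), KRT8, an epithelial keratin (41 and 78, 1.65), HNF4A, a transcription factor of gut and liver (31 and 64, 1.29), EHF (38 and 147, 0.71) and KLF5 (31 and 140, 0.20). LGR5, a marker of intestinal stem cells, entered through its low sites, with 7 tall and 179 low records (-2.50).

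Of 24 immediate-early and growth-response genes, 20 were found under their symbols, 4 were tested and 3 were higher. Over all 2178 genes tested 23.1% were higher and 49.4% lower. EREG, a ligand of the EGF receptor, passed on both classes, with 4 to 12 tall and 7 to 22 low sites per library, and was higher at 2.08 ± 0.19 (SE, limma adjusted p = 8.41e-06). ATF3 also passed on both and was at 0.05 ± 0.22, with no call, while PHLDA1 (1.62) and TGIF1 (1.22) entered through tall sites alone, as did 306 higher genes of 428. In the list of transcription elongation factors and BET co-factors 5 of 17 were tested and 5 were lower, 3 of them through low sites alone, namely CDK8, a kinase of the Mediator complex (3 tall and 171 low records), MED13 (12 and 244) and CREBBP, an acetyltransferase (16 and 193). By that route 784 of all 831 genes were lower, and of the 919 that passed on both 291 were. MED13L passed on both and was lower at -1.54 ± 0.21 (SE, limma adjusted p = 9.45e-05). AFF1 passed on both at -0.67 ± 0.26 (limma adjusted p = 0.0339). The AFF1 call was lost after scaling to the median gene (-0.25, adjusted p = 0.385), with the low band of 10 to 19 (0.0506), with no filter (0.0526), with WT_hyPB replicates 1 and 2 averaged (0.059), and without any 1 of 7 libraries, WT_PB replicate 3, WT_hyPB replicates 1 and 2, WT_rePB replicates 1 and 3 and WT_rehyPB replicates 2 and 3, at adjusted p from 0.0511 to 0.0811. CREBBP lost its call after the same scaling (-0.83, adjusted p = 0.0841), which leaves 3 of the 5 lower.

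Giant genes that overlap common fragile sites held 14 tested members of 17. Of the 9 that passed on both classes 8 were lower and 0 higher, and the 5 that entered through low sites alone were all lower. Over all genes tested, 291 of the 919 that passed on both were lower, and 784 of the 831 through low sites alone. FHIT had 3 to 9 tall and 31 to 104 low sites per library (-0.95 ± 0.17, SE) and LRP1B 7 to 14 and 97 to 182 (-1.11 ± 0.16), both passing on both classes. DPYD, an enzyme of pyrimidine breakdown, had 0 to 5 and 40 to 103 and MACROD2 0 to 2 and 6 to 23, both through low sites alone. Long neuronal adhesion and synapse genes held 14 tested members of 25. Of the 7 that passed on both, 6 were lower and 1, PCDH7, was higher. The 7 that entered through low sites alone were all lower, beside 784 of all 831 genes by that route. LSAMP, 1 of the 6, lost its call after scaling to the median gene (-0.99, limma adjusted p = 0.0541). The PCDH7 relative PCDH9 was lower at -2.21 ± 0.37 and ERBB4, a receptor of the EGF receptor family, with 1 to 7 tall and 46 to 116 low sites per library, at -2.25 ± 0.32. Of the lists for other cell types and for housekeeping genes, 1 member each passed the filter. RUNX1, a transcription factor of blood, passed on both and was higher at 0.52 ± 0.15 (SE, limma adjusted p = 0.00937), a call lost with the low band of 10 to 19 (0.36, adjusted p = 0.0569). EEF1A1, a translation elongation factor, had 28 tall and 23 low records and entered through tall sites alone.

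**Figure D4:**
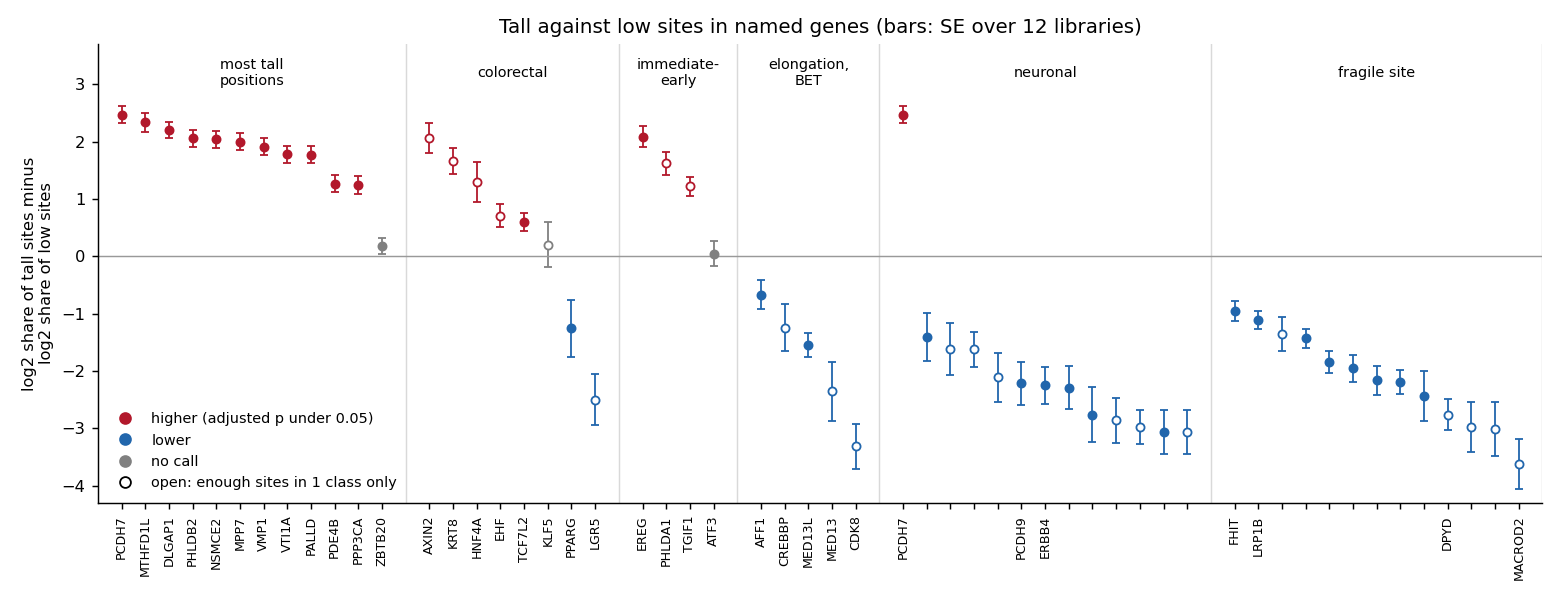
Difference between tall and low sites in the log2 share of sites per gene (vertical axis) for the 12 genes with the most tall sites summed over the libraries and for tested members of 5 gene lists, with names for those given in the text, as the mean over 12 libraries with its SE, coloured by call, with open symbols for genes that had enough sites in 1 class only. Of the 12 leading genes, which were picked for their tall sites, 11 lie above 0 with a call. In the fragile-site and neuronal lists PCDH7 is the 1 drawn member above 0.

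Bins of the genome that were higher in tall sites held more genes. Of 555 bins of 5 Mb, 176, or 31.7%, were higher in tall sites and 303, or 54.6%, were lower (limma, adjusted p under 0.05), and scaling to the median bin raised all differences by 0.20 and gave 226 and 240. The median number of protein-coding genes was 49.5 in the bins that were higher, 20 in those that were lower and 26.5 in those with no call. The largest excess was the PCDH7 bin, 30 to 35 Mb of chromosome 4, which held 2 coding genes and 221 to 370 tall sites per library (1.63 ± 0.06, SE). Next came 5 to 10 Mb of chromosome 1, with 46 coding genes (1.51 ± 0.05), 20 to 25 Mb of chromosome 9 (1.44 ± 0.05) and the first 5 Mb of chromosome 19, which had 202 coding genes, more than any other bin, and 68 to 98 tall sites per library (1.38 ± 0.06). The largest deficits were at 140 to 145 Mb of chromosome 1 (-3.84 ± 0.29), at 110 to 115 Mb of chromosome 8 (-3.55 ± 0.43), where 1 coding gene lay, and at 65 to 70 Mb of chromosome 6 (-3.21 ± 0.37). The chromosome 1 bin held 0 to 1 tall sites per library (median 0) and 5 to 27 low sites, so that its value depends on the prior. Bins were tested from a mean of 5 tall plus low sites, which low sites alone could supply. The next deficit, at 85 to 90 Mb of chromosome 13 (-3.21 ± 0.38), came with 0 to 6 tall and 66 to 160 low sites per library.

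**Figure D5:**
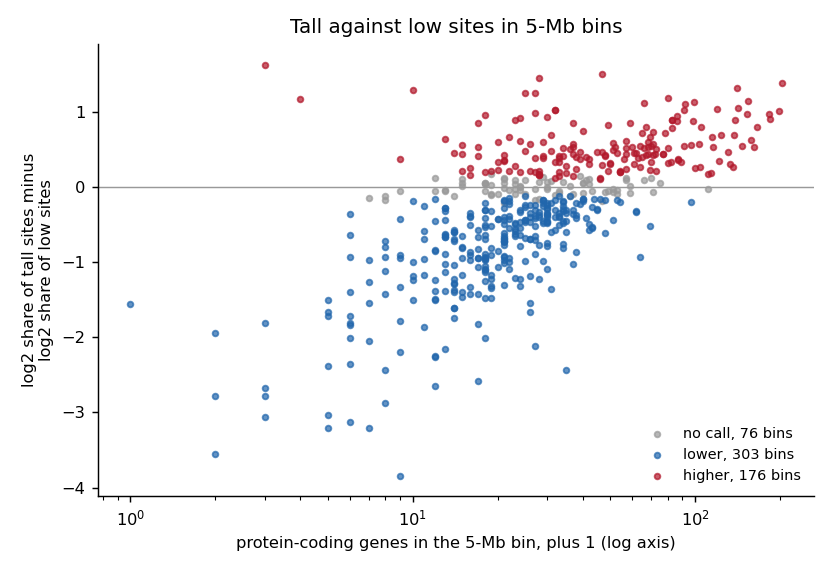
Difference between tall and low sites in the log2 share of sites per 5-Mb bin (vertical axis) against the number of protein-coding genes in the bin plus 1 (log axis), 1 point per bin, coloured by call. The bins called higher have a median of 49.5 genes and those called lower 20, and the PCDH7 bin, with 2 genes, is the highest point at 1.63.

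The transposases differed in where their tall sites lay. Under re-engineered transposases fewer tall sites were near gene ends. The gene-end share of tall sites was 26.0%, 24.7% and 25.9% in the 3 WT_PB libraries and 26.1%, 25.98% and 26.1% in WT_hyPB, against 21.95%, 20.8% and 21.5% in WT_rePB and 21.4%, 22.4% and 22.9% in WT_rehyPB. No library of a re-engineered form reached any library of the other forms. The re-engineering effect, the mean of both differences of group means, was -3.98 points (-4.09 for WT_rePB against WT_PB and -3.86 for WT_rehyPB against WT_hyPB, exact permutation test, p = 0.005, the smallest this test can give, adjusted p = 0.00833). The share within 1 kb of a start was 10.9%, 10.05% and 10.4% in WT_PB and 11.1%, 11.3% and 11.99% in WT_hyPB, and 5.87%, 5.46% and 5.78% in WT_rePB and 6.33%, 6.61% and 6.98% in WT_rehyPB. The effect was -4.78 points (exact permutation test, added, adjusted p = 0.00833). Low sites of the same libraries moved the same way by less, by -1.02 points near gene ends and -0.760 points near starts, and the effect on tall sites exceeded that on low sites by -2.96 and -4.02 points (exact permutation tests, adjusted p = 0.00833 for each).

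Clustering of tall sites was lower under the re-engineered transposases as well, by -0.78 on the log2 scale (-0.39 and -1.16 in the 2 pairs of groups, exact permutation test, adjusted p = 0.00833). With the tall limit scaled to each library's total this fell to -0.53 and with a limit of 100 to -0.42, neither past the threshold (adjusted p = 0.167 and 0.136). The gene share of tall sites differed by 0.710 points (adjusted p = 0.15, exact permutation test). File totals were highest in WT_rePB, at 11690600 on average, and lowest in WT_rehyPB, at 8727250, and the re-engineered group had the higher total in 1 of the 2 pairs of groups.

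The hyperactive change gave smaller differences. Its effect on tall sites was -0.176 points for the gene share, 0.655 points for the gene-end share and 0.21 for clustering (log2), none past the threshold (exact permutation tests, adjusted p = 0.665, 0.129 and 0.217), and 0.974 points for the start-site share, which passed (added, adjusted p = 0.00833). The last call was lost with a tall limit of 100 (0.848 points) or a limit scaled to the file total (0.653 points).

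Tall positions also turned up in the shallow libraries. Of the sites of the short-transposon libraries, 38.5% ± 1.62 (short_PB) and 55.1% ± 0.474 (short_hyPB) lay at positions that were tall in at least 1 of the 12 deep libraries, and of the symmetric-transposon libraries 55.9% ± 2.72 (sym_rePB) and 54.9% ± 1.45 (sym_rehyPB) did (SD, n = 3 each). Positions that never exceeded a height of 9 in the deep libraries made up 4.25% to 6.58% of these sites on average, although there were 1102979 of them against 184373 tall positions. These sets are defined unequally, since a tall row in 1 library suffices for the first, whereas all rows must be low for the second. Positions listed in many deep libraries thus fall more readily among the tall ones. The piggyBat system, a related transposon from bats, gave 28.9% ± 0.786 at tall positions and 7.38% ± 0.197 at low ones (SD, n = 3). Of the 297 positions tall in all 12 libraries, 233 were listed in at least 1 short or symmetric library and 55 in at least 1 piggyBat library.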

How the data were processed

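Each of the 27 libraries was deposited as 1 peak list per sample, without a header. The authors' deposited height and area are read coverage (signal, not scaled to library size), and the deposited width and constant last column are other values, the last taken as the read total, which no source used here states. Per the submitters' processing notes, cutadapt 3.4 and HISAT2 2.2.1.0 were used with hg38 and GRCh38.p5, and the peak caller is not given in the sources used here. Genes, gene starts and sequences came from RefSeq tables of GRCh38.p14, with 56752 autosomal genes, of which 19122 are protein-coding, and were matched by position. No genome was used. A site is the 5′ edge of a peak, moved by 3 bases on minus. Peaks on sex chromosomes were left out.

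Class differences and effects used two-sided exact permutation tests over libraries with Benjamini-Hochberg adjustment over 10 planned and 15 added tests. Counts of sites per gene or 5-Mb bin were compared with limma 3.58.1 in R 4.3.3 as the difference of log2 shares, adjusted over all features (threshold 0.05). The prior was 0.5 sites at the mean class size, scaled to each class and library. Genes with a mean of 2 tall or 13.8 low sites were tested, and bins with a mean of 5 tall plus low sites. The fit was tested on simulated counts with known changes. The genes named are the 12 with the most tall positions, the 10 largest differences in each direction and members of gene lists, and some of these are not reported here. The members and lists were chosen with earlier results of these data known. Depth is given as file totals, and precision as the spread between libraries. Alternatives are listed in the closing section.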

Additional observations from a re-analysis of the deposited data

Results flagged for a closer look

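The re-engineering effect differed between tall and low sites of the same libraries. It was larger on tall sites by -2.96 percentage points for the gene-end share and by -4.02 points for the share within 1 kb of a gene start (exact permutation tests, adjusted p = 0.00833 for each, the same direction in both pairs of groups).

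The hyperactive change acted differently on tall sites of the parental and the re-engineered transposase. Its effect on the gene share was -1.14 points for WT_hyPB against WT_PB and 0.790 points for WT_rehyPB against WT_rePB, a difference of -1.93 points (exact permutation test, adjusted p = 0.015). With a tall limit of 100 this was -1.09 points with an adjusted p of 0.202. For clustering it was 0.59 and -0.17 on the log2 scale, a difference of 0.77 (exact permutation test, adjusted p = 0.00833). Of 4 such differences tested, these 2 passed.

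Chromosome X was outside the main measurement. The 12 libraries listed 5097 tall peaks there, which is 3.33% to 6.89% of its rows per library.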

How the results depend on the processing

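The 4 differences between tall and low sites kept their direction and call under every alternative run, including other height limits, low bands, gene annotations, window sizes and distances, and without any 1 library, where they ran from -4.35 to -4.20 points (gene share), 7.52 to 8.001 (gene-end share), 34.0 to 35.0 (recurrence) and 1.96 to 2.10 on the log2 scale (clustering). The re-engineering effect without 1 library was 0.571 to 0.886 points (gene share), -4.19 to -3.76 (gene-end share) and -0.82 to -0.73 (clustering), and the hyperactive effect -0.315 to 0.000610, 0.442 to 0.868 and 0.16 to 0.25, where the gene share turned sign without WT_rehyPB replicate 3 and the gene-end share passed the threshold without WT_rehyPB replicate 1 (adjusted p = 0.0357). With a tall limit of 100 the hyperactive effect was 0.907 points (gene share) and -0.055 (clustering), both turned, and the re-engineering effect on clustering was -0.42, no longer past the threshold. With a limit of 20 the hyperactive effect was 1.198 points (gene-end share) and 0.22 (clustering), both past it. With the limit scaled to the file total the hyperactive effect turned to 0.179 points (gene share) and -0.14 (clustering), and the re-engineering effect on clustering was -0.53. With a replicate block (exact test that flips the signs of differences between same-numbered libraries) the re-engineering effects of -3.98 points and -0.78 had an adjusted p of 0.0521. Before adjustment both were at the smallest p this blocked test can give, so that the lost calls do not measure a weaker effect. Same-numbered libraries correlated by at most 0.053 in their deviations per gene, and differently numbered ones also reached 0.053 (WT_PB replicate 2 with WT_hyPB replicate 1). The labels name no batch, and with few tall sites in most genes these correlations cannot exclude a pairing by number. Called genes were 7662 with no filter on few sites (963 higher, 6699 lower) and 64 with a tall limit of 100 (59 higher, 5 lower, of 74 tested), 1506 to 1558 without 1 library, and 1555 with the block. Limiting tall sites to a height of 100 gave 114 bins higher and 320 lower. Bins called stayed within 1.5 times the 479 of the reported fit, at 471 to 480 without 1 library. ATF3 turned to -0.16 with the low band of 10 to 19 and ran from -0.068 (without WT_PB replicate 1) to 0.17 without 1 library, below 0 also without WT_rePB replicate 1. KLF5 ran from -0.048 (without WT_rePB replicate 2) to 0.54. The cause of these changes was not tested.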
